A study of Rattus norvegicus with 12 samples.

Results

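The Rab proteins are small GTPases of membrane traffic, and the transcripts described here are the 56 Rab genes that the array measured in the basolateral amygdala (BLA) of rats with a history of sucrose snacks. Members were all probe sets to which the platform annotation gave exactly 1 symbol made of Rab, a number and at most 1 letter. The rule found 97 probe sets for 56 genes, of 31042 probe sets tested and 14217 named genes. A further 3 probe sets carried both Rab1a and Rab1b and were left out. The BLA is a forebrain region that links sensory cues to emotional value. Male Long-Evans rats, aged 2-3 months and 225-250 g in weight, were housed singly with free chow and water. For 14 days the sucrose rats had an extra bottle of up to 4 mL of 30% sucrose 2 times a day, and the control rats had an extra bottle of water on the same schedule. The rats were killed in the morning on day 15. Each array carried RNA of the left and right BLA from 2 rats of 1 group, so that 24 rats gave 6 sucrose and 6 control arrays.

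A Rab protein switches between a GTP-bound form, which sits on a membrane and recruits effectors such as tethers and motors, and a GDP-bound form, which a dissociation inhibitor keeps in the cytosol. Each compartment carries its own Rab proteins. In neurons, Rab3 and Rab27 proteins sit on vesicles that await release, Rab5 and Rab4 on early endosomes that take up and return receptors, Rab11 on the recycling endosomes that feed receptors to dendritic spines, and Rab7 on late endosomes. The 56 genes were placed in 4 classes by these known roles. There were 8 secretory genes (12 probe sets), 20 endosomal genes (42 probe sets), 19 genes of the endoplasmic reticulum (ER), the Golgi and constitutive delivery to the surface (31 probe sets), and 9 others (12 probe sets).

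The reference set held promoter sequences (RefSeq, assembly GRCr8, 250 bases before to 50 after the start site) for 45 of the 56 genes, 46 promoters in all. An E-box, CACGTG on both strands, was found in 4 Rab promoters, and all 4 belonged to endosomal genes. In the family as a whole these were 4 of 46 promoters (8.70%), close to the 7.01% of 21842 promoters of protein-coding genes. By class they were 4 of 19 endosomal, 0 of 6 secretory, 0 of 15 ER and Golgi and 0 of 6 other promoters. Numbers this small do not set the classes apart. Counted from the start site, the E-box began at base -204 in Rab5a, -52 in Rab21, -66 in Rab31 and -5 in Rab20. The CLEAR element, which contains the E-box letters and is known from lysosomal genes, was found in 1 Rab promoter, that of Rab21, and in 0.311% of the protein-coding promoters. The stretches below show 3 of these E-boxes, in capitals, beside a stretch of the secretory gene Rab3a, where capitals mark the GC box (GGGCGG or its complement). They lie at chr9:6720877-6720996, plus strand (Rab5a), chr7:52814944-52815063, minus strand (Rab21), chr9:112828096-112828215, minus strand (Rab31) and chr16:18722348-18722467, minus strand (Rab3a).
Rab5a: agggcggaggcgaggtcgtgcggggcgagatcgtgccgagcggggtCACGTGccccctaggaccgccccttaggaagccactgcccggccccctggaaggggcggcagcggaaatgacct
Rab21: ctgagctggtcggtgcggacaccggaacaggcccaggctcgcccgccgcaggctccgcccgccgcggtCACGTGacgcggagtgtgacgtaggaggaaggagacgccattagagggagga
Rab31: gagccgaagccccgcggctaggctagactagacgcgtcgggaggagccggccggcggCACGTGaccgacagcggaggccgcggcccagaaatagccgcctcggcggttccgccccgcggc
Rab3a: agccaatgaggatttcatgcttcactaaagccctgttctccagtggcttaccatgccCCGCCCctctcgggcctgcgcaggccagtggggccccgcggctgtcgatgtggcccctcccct
The GC box, searched on both strands, was present in 36 of 46 Rab promoters, 78.3% against 41.8% of protein-coding promoters. By class it was in 17 of 19 endosomal, 5 of 6 secretory, 10 of 15 ER and Golgi and 4 of 6 other promoters. The stretches of Rab5a, Rab21 and Rab31 above also hold it, left in lower case. The TATA letters TATAAA were found on either strand in 0 of 46, against 13.0%, and the cAMP response element TGACGTCA in 1, that of Rab25, against 2.10%. GC content had a median of 63.3% in Rab promoters and 55.0% in protein-coding promoters. A match of letters is a description of sequence and shows neither binding nor control. The genes with an E-box showed no shared direction after sucrose. Rab5a and Rab20 had all probe sets lower (5 in all) and Rab21 its single one, between -0.12 and -0.01 on the log2 scale, while both probe sets of Rab31 were higher by 0.06, and none of these had an unadjusted p under 0.05.

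Every deposited value is a ratio of an array to the mean of the 6 control arrays. A difference given here is the sucrose mean less the control mean of log2 ratios, ± the standard error from limma fitted to all 31042 probe sets, with n = 6 pools per group. The ratio keeps no signal level, so Rab genes could not be ranked by abundance, dim probe sets could not be recognised, and the tissue label could not be checked against markers. The median ratio per array lay between 0.989 and 1.002. Sucrose array 1 stood apart: its mean over 9 choroid plexus and ependyma genes was 1.15, against -0.20 to 0.23 on the other sucrose arrays and -0.15 to 0.16 in controls. Its spike-in level (0.21) was the highest, and its 3-prime over 5-prime log2 ratio for Gapdh and actin (-0.14) the lowest, of the 12. In bulk tissue, fewer cells of a type and less RNA per cell cannot be told apart.

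No Rab probe set passed the test, and the family was close to balanced between higher and lower. Of 97 probe sets 48 were higher (49.5%) and 49 lower, where 45.7% of all probe sets were higher. Of the 97, 0 had an adjusted p under 0.05 (limma, Benjamini-Hochberg over all probe sets, background 0.00%). The lowest adjusted p was 0.376, that of Rab30. At an unadjusted p under 0.05 there were 10 (10.3%), against a background of 7.57%: 7 were higher (background 4.50%) and 3 lower (background 3.07%). The groups did not overlap for 3 of 97 probe sets, those of Rab30, Rab32 and Rab18, against a background of 0.425%. Differences ran from -0.12 to 0.23, with a median of 0.00 against -0.01 over all probe sets, and no Rab probe set reached a ratio of 1.2 in either direction, which 249 of all 31042 probe sets did. None of the 97 is among the 145 probe sets of the authors' deposited table. The lowest sucrose ratio above 1 in that table is 1.198, and the highest Rab ratio was 1.171. The absence of higher Rab probe sets from it is therefore not a separate result. The number of lower probe sets at an unadjusted p under 0.05 was unstable: it was 0 without sucrose array 2, 1 without sucrose array 1 or 5 or control array 3 or 5, and 5 without sucrose array 4 or control array 4.

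**Figure D1:**
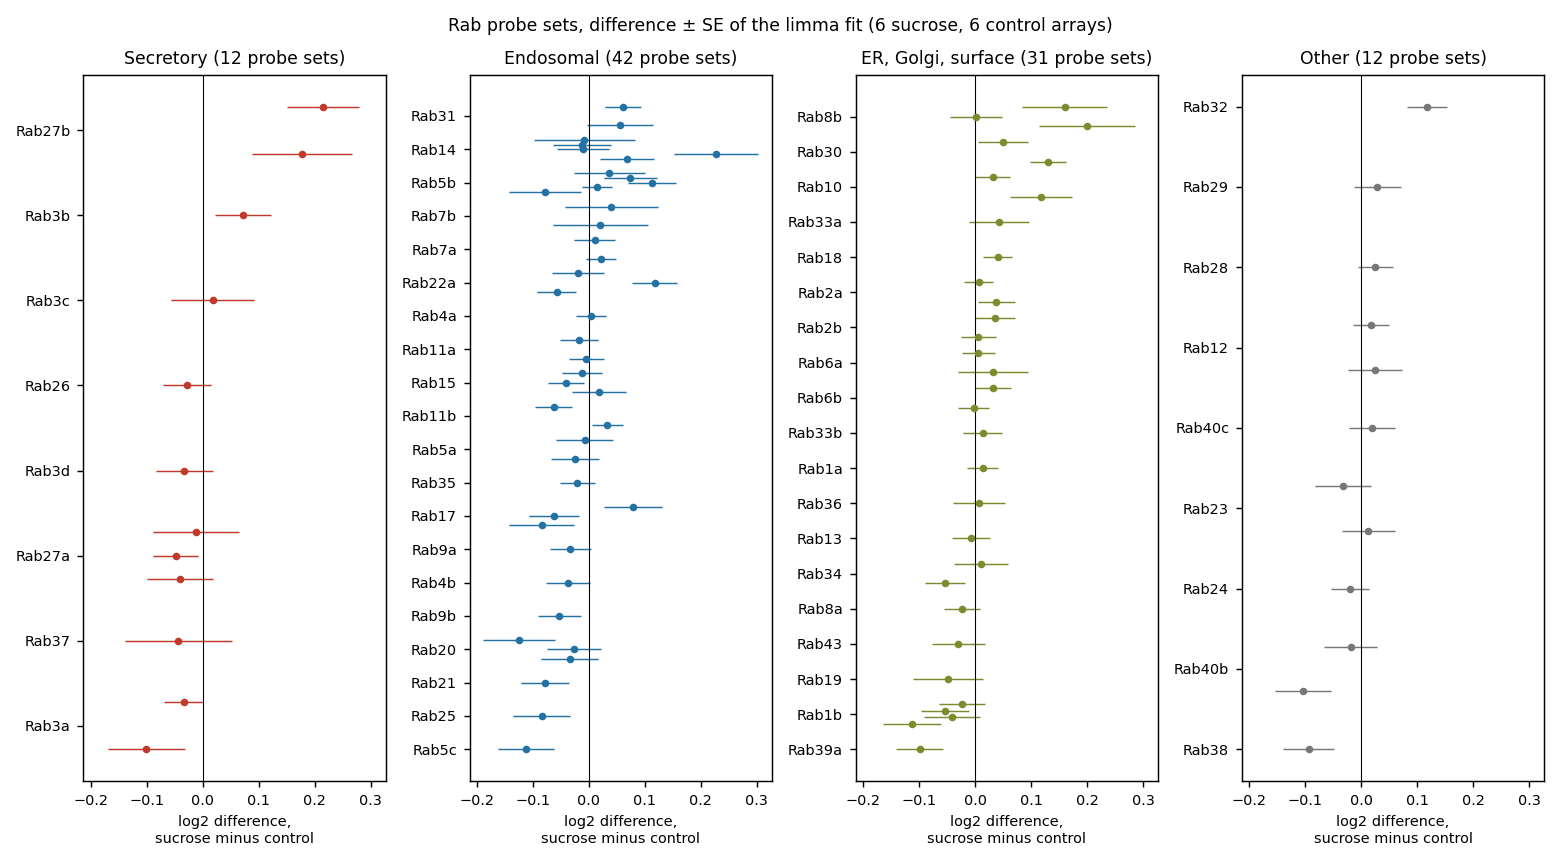
Log2 difference (sucrose minus control) of each of the 97 Rab probe sets, with bars for the SE of the limma fit, in 4 panels by class and with genes ordered by the mean of their probe sets. Most points lie within 0.1 of 0. Rab27b in the secretory class and single probe sets of Rab14 and Rab8b lie farthest to the right.

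Among secretory genes the clearest difference was in Rab27b, whose protein, with Rab27a, docks secretory granules and is also found on synaptic vesicles. Its first probe set (1378107_at) ran from 0.08 to 0.40 with a median of 0.20 in sucrose arrays and from -0.20 to 0.17 with a median of -0.03 in controls. The ranges overlapped, with sucrose array 1 highest and control array 5 lowest. The difference was 0.21 ± 0.06 (95% interval 0.08 to 0.35), a ratio of 1.16, with an unadjusted p of 0.00512 and an adjusted p of 0.442 in limma. The second probe set (1370122_at) ran from 0.01 to 0.53 with a median of 0.12 in sucrose arrays and from -0.23 to 0.19 with a median of -0.01 in controls. It had the same direction, 0.18 ± 0.09 (adjusted p = 0.701), again with sucrose array 1 highest. Without that array it was 0.10, with an unadjusted p of 0.164 and an adjusted p of 0.845 in limma. Without sucrose array 1 the first probe set still differed by 0.18, with an unadjusted p of 0.0124 and an adjusted p of 0.673 in limma. The number of Rab probe sets at an unadjusted p under 0.05 was 11 without both that array and control array 2.

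Rab3a, the Rab protein of synaptic vesicles that limits release, went the other way without passing the test. Its probe set 1369816_at ran from -0.20 to 0.06 with a median of -0.11 in sucrose arrays and from -0.21 to 0.21 with a median of -0.05 in controls. The sucrose range lay inside the control range, in which arrays 3 and 5 were highest and array 1 lowest. The difference was -0.10 ± 0.07 (95% interval -0.25 to 0.05), and that of its other probe set was -0.03 ± 0.04 (95% interval -0.11 to 0.04). Without control array 3 these were -0.06 and -0.01. Rab3b, which can replace Rab3a in release, differed by 0.07 ± 0.05 (from -0.07 to 0.17, median 0.08, against -0.10 to 0.14, median -0.02). Rab3c, another vesicle isoform, differed by 0.02 ± 0.07, with values from -0.15 to 0.15 after sucrose (median 0.05) and from -0.28 to 0.20 in controls (median 0.02). Rab26, known from secretory granules and synaptic vesicles, differed by -0.03 ± 0.04 (from -0.18 to 0.07, median 0.00, against -0.07 to 0.05, median 0.01). In each of these 4 genes the groups overlapped, and the 95% intervals included 0. Of the remaining secretory genes, Rab3d and Rab37 had 1 probe set and Rab27a 3, all between -0.05 and -0.01 and none with an unadjusted p under 0.05.

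Of the 10 probe sets below an unadjusted p of 0.05, 4 were endosomal, in Rab14, Rab22a, Rab5b and Rab5c. They are 9.52% of the 42 endosomal probe sets, against 7.57% over all probe sets. The share was 12.9% in the ER and Golgi class (4 of 31) and 8.33% in both the secretory and the other class. In Rab14, Rab22a and Rab5b the other probe sets gave smaller differences or the opposite sign. Rab14, which works between the Golgi and early endosomes, had the largest difference of the family. Its probe set 1375687_at ran from 0.09 to 0.56 with a median of 0.17 in sucrose arrays and from -0.17 to 0.14 with a median of -0.01 in controls. Sucrose array 2 was highest by a wide margin, and the ranges overlapped. The difference was 0.23 ± 0.08 (95% interval 0.07 to 0.39, unadjusted p = 0.00912, adjusted p = 0.502 in limma), and without sucrose array 2 it was 0.16. The other 4 probe sets of Rab14 lay between -0.01 and 0.07, so 2 of 5 were higher.

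Rab22a, a Rab of early endosomes and of recycling from them, had a probe set (1377896_at) that ran from 0.04 to 0.19 with a median of 0.12 in sucrose arrays and from -0.11 to 0.11 with a median of -0.01 in controls. It was 0.12 ± 0.04 higher (adjusted p = 0.522 in limma), while its other 2 probe sets were at -0.06 and -0.02. For Rab5b, one of the Rab5 proteins that drive fusion of early endosomes, probe set 1392643_at ran from 0.04 to 0.22 with a median of 0.09 in sucrose arrays and from -0.11 to 0.08 with a median of -0.01 in controls. The difference was 0.11 ± 0.04 (adjusted p = 0.570 in limma), with sucrose arrays 3 and 5 highest and the ranges overlapping. The other 4 probe sets of Rab5b differed by -0.08 ± 0.06, 0.01 ± 0.03, 0.04 ± 0.06 and 0.07 ± 0.05. Rab5c, measured by 1 probe set, pointed down, from -0.27 to 0.02 with a median of -0.09 in sucrose arrays against -0.10 to 0.09 with a median of 0.02 in controls, a difference of -0.11 ± 0.05 (adjusted p = 0.634 in limma).

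The classic endosomal markers were nearly flat, with standard errors from 0.03 (Rab7a) to 0.05 (Rab5a), against a median of 0.05 over all probe sets. Rab5a, the best known early endosome Rab, differed by -0.03 ± 0.04 and -0.01 ± 0.05 in its 2 probe sets. Its first ran from -0.14 to 0.10 after sucrose (median -0.03) and from -0.11 to 0.07 in controls (median 0.01), and its second from -0.15 to 0.09 (median 0.03) and from -0.07 to 0.08 (median -0.01). Rab4a, of fast recycling, differed by 0.00 ± 0.03 (95% interval -0.05 to 0.06), with every array between -0.04 and 0.05. Rab7a, which takes late endosomes to lysosomes, differed by 0.02 ± 0.03 and 0.01 ± 0.04, with arrays between -0.07 and 0.11. Rab11a, of recycling endosomes, differed by 0.00 ± 0.03 and -0.02 ± 0.03, with arrays between -0.09 and 0.09. For these 4 genes the widest 95% interval of any probe set was -0.12 to 0.10, that of Rab5a, and each difference was smaller than the SD between arrays of either group. The other 9 endosomal genes, Rab4b, Rab7b, Rab9a, Rab9b, Rab11b, Rab15, Rab17, Rab25 and Rab35, lay between -0.08 and 0.08 over 15 probe sets, 5 higher and 10 lower, and none had an unadjusted p under 0.05.

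**Figure D2:**
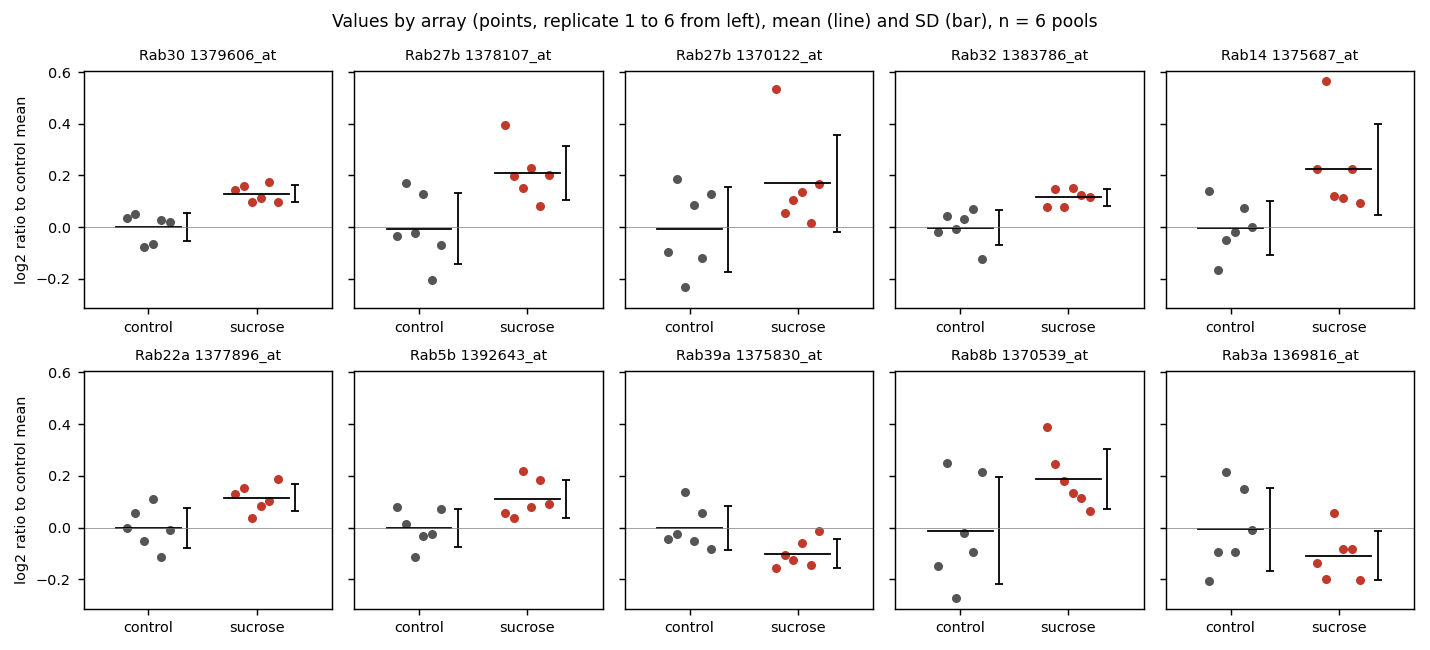
Log2 ratios to the control mean on each array (points, replicates 1 to 6 from left to right) for 10 probe sets of the family, with the group mean as a line and the SD as a bar (n = 6 pools). Rab30 and Rab32 separate completely. Sucrose array 1 stands high for Rab27b (0.40 and 0.53) and Rab8b (0.39), and sucrose array 2 for Rab14 (0.56).

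In the ER and Golgi class 20 of 31 probe sets were higher and 11 lower, where 45.7% of all probe sets were higher. Rab30, a Golgi Rab of this class, had the lowest p of the family. Its probe set 1379606_at ran from 0.10 to 0.17 with a median of 0.13 in sucrose arrays and from -0.08 to 0.05 with a median of 0.02 in controls. Every sucrose array lay above every control array. The difference was 0.13 ± 0.03 (95% interval 0.06 to 0.20), a ratio of 1.095, with an unadjusted p of 0.00116 and an adjusted p of 0.376 in limma. Its second probe set was 0.05 ± 0.04 higher. Rab18, of the ER and lipid droplets, also separated completely, by a narrow margin (lowest sucrose value 0.0207, highest control value 0.0172), and was named after its values were seen. Its difference of 0.04 ± 0.03 had an unadjusted p of 0.143 in limma.

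Rab8b, which carries cargo from the Golgi to the surface, ran in probe set 1370539_at from 0.06 to 0.39 with a median of 0.16 in sucrose arrays and from -0.27 to 0.25 with a median of -0.06 in controls. Sucrose array 1 was highest, and control arrays 2 and 6 lay within the sucrose range. The difference was 0.20 ± 0.09 (unadjusted p = 0.0353, adjusted p = 0.619 in limma). Without sucrose array 1 it was 0.16 with an unadjusted p of 0.0844 and an adjusted p of 0.800 in limma. Its other 2 probe sets were at 0.16 ± 0.08 and 0.00 ± 0.05. Rab39a pointed down, from -0.16 to -0.01 with a median of -0.12 after sucrose against -0.08 to 0.14 with a median of -0.03 in controls, a difference of -0.10 ± 0.04 (adjusted p = 0.612 in limma). Rab1b, of ER-to-Golgi traffic, had all 4 probe sets lower, between -0.11 and -0.02. The lowest, 1382946_a_at, ran from -0.20 to -0.03 with a median of -0.11 after sucrose and from -0.13 to 0.17 with a median of -0.04 in controls. It differed by -0.11 ± 0.05 (adjusted p = 0.651 in limma). The other 14 genes of the class, which include Rab6a of the Golgi and Rab10 of delivery to the surface, lay between -0.05 and 0.12 over 20 probe sets, 14 higher and 6 lower. The highest was a probe set of Rab10 (0.12 ± 0.06), and none had an unadjusted p under 0.05.

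Outside these classes Rab32, known from lysosome-related organelles and mitochondria, separated completely. Its values ran from 0.08 to 0.15 with a median of 0.12 in sucrose arrays and from -0.12 to 0.07 with a median of 0.01 in controls. The difference was 0.12 ± 0.04 (95% interval 0.04 to 0.19, unadjusted p = 0.00512, adjusted p = 0.442 in limma) in its only probe set. The other 8 genes of the group, Rab12, Rab23, Rab24, Rab28, Rab29, Rab38, Rab40b and Rab40c, lay between -0.10 and 0.03 over 11 probe sets, 6 higher and 5 lower, and none had an unadjusted p under 0.05.

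Secretory and endosomal members were then set side by side, each gene counted once through the mean of its probe sets. The median difference was -0.03 over 8 secretory genes, of which 3 were higher and 5 lower, and -0.02 over 20 endosomal genes, of which 7 were higher and 13 lower. The secretory median was -0.0029 without sucrose array 6, -0.0032 without control array 5, -0.0121 without control array 6 and -0.0166 without control array 3. The endosomal median was -0.0093 without control array 5 and -0.025 without sucrose array 4. Over all 14217 named genes the median was -0.01, and 6321 were higher. The secretory median and mean (0.01) differ in sign, since Rab27b lies above the other 7. Per array, the secretory mean ran from -0.04 to 0.04 after sucrose and from -0.06 to 0.05 in controls. The endosomal mean ran from -0.05 to -0.01 after sucrose and from -0.02 to 0.02 in controls. Both classes overlapped between groups, and the secretory minus endosomal mean was 0.02 ± 0.03 (SD) in sucrose arrays and 0.00 ± 0.05 in controls. The class means thus differed by 0.03 and the class medians by -0.0150, with opposite signs and both within the spread of control arrays. The difference of medians turned to 0.0129 without sucrose array 6, to 0.0061 without control array 5, to 0.0103 without control array 6, and to 0.0062 when each gene was taken from its probe set of highest variance, so the data gave no order of the classes. No p is given for such class values, because the classes were drawn up with earlier results of these arrays known.

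**Figure D3:**
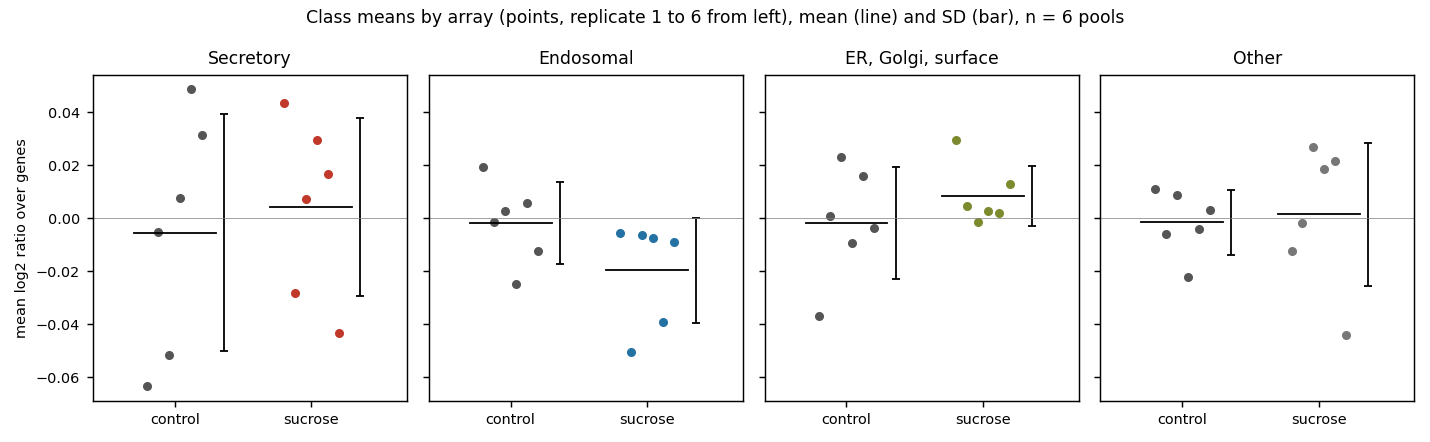
Mean log2 ratio over the genes of each class on each array (points, replicates 1 to 6 from left to right), with the group mean as a line and the SD as a bar (n = 6 pools). All 4 classes overlap between groups. The endosomal mean was 0.00 ± 0.02 in controls and -0.02 ± 0.02 after sucrose.

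Members also differed in how much they varied between pools. The SD within groups had a median of 0.116 over the 12 secretory probe sets, 0.0795 over the 42 endosomal, 0.0680 over the 31 of ER and Golgi, and 0.0854 over all probe sets. Rab37 (0.188) and the second probe set of Rab27b (0.176) varied most, and Rab18 (0.0228) and a probe set of Rab2a (0.0243) least. Since no level is kept, spread cannot be separated here from weak signal. Of the 27 genes with more than 1 probe set, 18 had all of them in 1 direction (11 higher, 7 lower) and 9 had both.

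Regulators and effectors outside the family were read from 5 lists of 89 measured genes (146 probe sets), of which 0 had an adjusted p under 0.05 and 11 (7.53%) an unadjusted p under 0.05, 10 higher and 1 lower. Over all probe sets that share was 7.57%, with 4.50% higher and 3.07% lower. The count was 7 without sucrose array 3 and 7 with quantile normalization. Of 9 probe sets for dissociation inhibitors, escort proteins and the prenylating enzyme none was among them. Of 40 for exchange factors 15 were higher and 25 lower at any size, and 1 (2.50%) was higher at an unadjusted p under 0.05. That was a probe set of Mon1b, part of the factor that loads Rab7 with GTP. It ran from 0.02 to 0.48 with a median of 0.25 after sucrose and from -0.21 to 0.15 with a median of -0.01 in controls (0.25 ± 0.07, adjusted p = 0.435 in limma). The other probe set of Mon1b was nearly flat, at 0.03 ± 0.05. Of 41 for GTPase-activating proteins 22 were higher at any size, and 3 (7.32%) at an unadjusted p under 0.05. These were in the TBC domain gene Tbc1d23 (0.19 ± 0.06), Evi5 (0.13 ± 0.05) and the Rab7 regulator Tbc1d15 (0.06 ± 0.03). Other probe sets of these genes differed from them, at 0.01 ± 0.03 for Tbc1d23, 0.10 ± 0.06 and 0.00 ± 0.03 for Evi5 and -0.06 ± 0.05 for Tbc1d15.

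Among 43 probe sets for effectors of endosomal Rab proteins 32 were higher and 11 lower, where 45.7% of all probe sets were higher. At an unadjusted p under 0.05 there were 5 higher (11.6%, over all probe sets 4.50%) and 0 lower. Rbsn, rabenosyn-5, which binds both Rab4 and Rab5, ran from 0.08 to 0.62 with a median of 0.26 in sucrose arrays and from -0.28 to 0.29 with a median of -0.07 in controls. It differed by 0.31 ± 0.11 (ratio 1.237, unadjusted p = 0.0168, adjusted p = 0.562 in limma), and its other 3 probe sets lay between 0.00 and 0.05. In the authors' deposited table the same probe set has a sucrose ratio of 1.229 and a p of 0.0412. Eea1, the Rab5 tether of early endosomes, ran from 0.05 to 0.32 with a median of 0.24 against -0.32 to 0.22 with a median of -0.03 in controls. The difference was 0.23 ± 0.08 (adjusted p = 0.543 in limma), but 0.02 ± 0.05 in its second probe set. Osbpl1a, a Rab7 effector and lipid sensor, was higher in each of its 4 probe sets, at 0.04, 0.10, 0.12 and 0.16. Appl2, a Rab5 effector, was 0.12 ± 0.05 higher in the probe set that had an unadjusted p under 0.05. The list mean was 0.02 ± 0.02 (SD) in sucrose and 0.00 ± 0.01 in control arrays. The ranges overlapped, since the lowest sucrose array was at -0.00319 and the highest control array at 0.00815. Sucrose array 1 was the highest of the 12 in the probe sets of lowest p of Mon1b, Tbc1d23, Evi5, Rbsn and Eea1 and in 3 of 4 of Osbpl1a, as in those of lowest p of Rab27b and Rab8b. Without it these differences were 0.20 for Mon1b, 0.15 for Tbc1d23, 0.09 for Evi5, 0.24 for Rbsn and 0.21 for Eea1. The 4 probe sets of Osbpl1a, in the order given above, were then at 0.06, 0.06, 0.10 and 0.11. The count of regulators and effectors at an unadjusted p under 0.05 was then 10, against 11 with all arrays. The 10 were not a subset of the 11. The unadjusted p in limma rose to 0.0697 for Evi5 and to 0.0542 for the 0.12 probe set of Osbpl1a. It stayed under 0.05 for Mon1b (0.0105), Tbc1d23 (0.0151), Eea1 (0.0316), Rbsn (0.0416) and the 0.16 probe set of Osbpl1a (0.0183).

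Of 15 probe sets for effectors of Rab3 and Rab27, 1 was higher and 1 lower at an unadjusted p under 0.05, where 4.50% and 3.07% of all probe sets were. The active zone gene Rims2 was at 0.08 ± 0.03 and the granule docking gene Sytl1 at -0.15 ± 0.07 (adjusted p = 0.640 and 0.651 in limma). Rims1, which joins Rab3 to the release machinery, was at 0.05 ± 0.05 and Rph3a, the Rab3 effector rabphilin, at 0.02 ± 0.06.

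**Figure D4:**
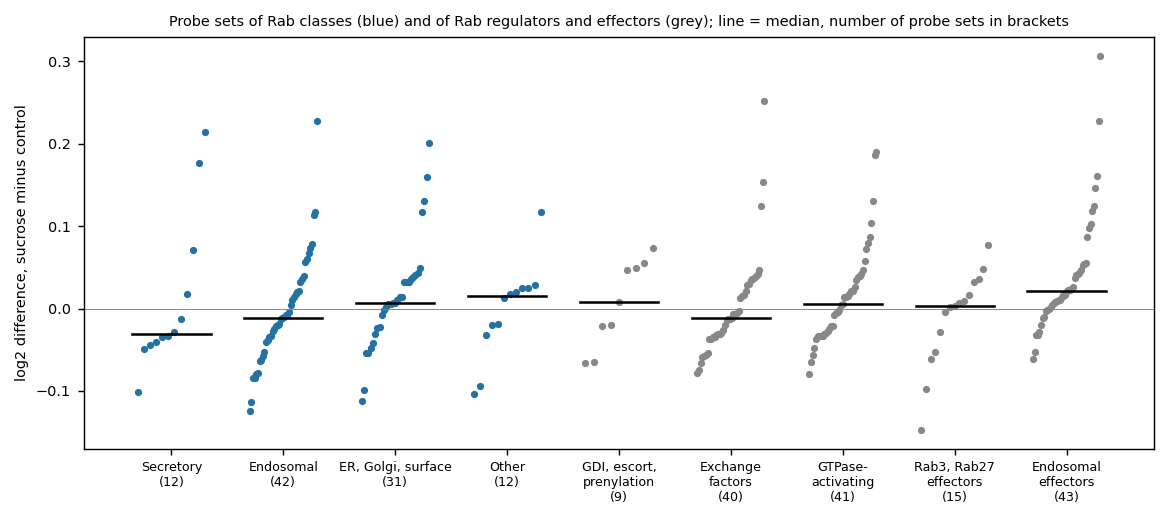
Log2 difference (sucrose minus control) of each probe set, sorted within the 4 Rab classes (blue) and 5 lists of Rab regulators and effectors (grey), with the median of each as a line. All medians lie between -0.03 and 0.02, the lowest in the secretory class and the highest among endosomal effectors.

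Marker genes of the region's cell types were read on the same arrays, and 0 of their probe sets had an adjusted p under 0.05 in limma. Of all 14217 named genes 6321 were higher, and the counts below are to be read beside that share. Oligodendrocyte genes were higher in 15 of 15 members, with a list mean from -0.12 to 0.34 in sucrose arrays and from -0.08 to 0.05 in controls. The 0.34 was that of sucrose array 5, and the next highest, sucrose array 6, was at 0.14. Astrocyte genes were higher in 9 of 11, from 0.00 to 0.15 and from -0.16 to 0.06. For choroid plexus and ependyma this held for 9 of 9, but for 4 of 9 without sucrose array 1. The mean of that list was 0.16 in sucrose and -0.02 in control arrays, and -0.04 over the sucrose arrays without array 1. Pallial excitatory neuron genes were higher in 4 of 12, from -0.08 to 0.06 and from -0.06 to 0.05, and GABAergic neuron genes in 5 of 11, from -0.03 to 0.02 and from -0.03 to 0.06. Striatal and central amygdala genes, which mark neighbouring tissue, were higher in 2 of 13, from -0.22 to 0.11 and from -0.11 to 0.10. Microglial genes were higher in 5 of 12, from -0.06 to -0.01 and from -0.06 to 0.03. At an unadjusted p under 0.05 in limma, 4 of 16 microglial probe sets were lower and 0 higher. For oligodendrocytes 4 of 25 and for astrocytes 3 of 20 were higher, and 0 lower. Over all probe sets 4.50% were higher and 3.07% lower. Endothelial genes were higher in 4 of 10, from -0.09 to 0.03 and from -0.09 to 0.09. The part of these cell types in the Rab values was not tested.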

How the data were processed

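Total RNA from 12 pools (2 rats each) was labelled with biotin and hybridised to rat arrays of short oligonucleotide probe sets. RMA, which corrects background, equalises arrays and summarises probes, is named without a version in the submitters' processing notes. The deposited values are linear ratios: the mean of the 6 control arrays was 1 for every probe set, within 2.02e-07. A second table deposited by the authors holds, per the file headers, p-values and mean ratios of 145 probe sets, with the test not named. The 57 manufacturer controls were left out of tests. Symbols came from the platform annotation, and all 56 Rab symbols were the same in the RefSeq gene table by gene identifier.

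Log2 ratios were fitted here with limma 3.58.1 in R 4.3.3 (group as the only term, two-sided, no variance trend because ratios keep no level), and p-values were adjusted by Benjamini and Hochberg's method across 31042 probe sets (threshold 0.05). No pseudocount or filter on low values was used. Array number limits the precision. Members, classes, lists and motifs were chosen with earlier results of these data known. Values over groups of 6 are given for the 8 genes of lowest p at an unadjusted p under 0.05, for a fixed set of secretory and endosomal genes. Rab5c and Rab1b, beyond those 8, were added after their values were seen. Among regulators up to 4 per list and direction were named, with Eea1, Rims1 and Rph3a. Alternatives were a replicate block, quantile normalization, median centring, a variance trend, robust fitting, other class members, another probe set per gene and leaving out arrays.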

Additional observations from a re-analysis of the deposited data

Results flagged for a closer look

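Dixon's test for a far value (95% level) was applied to 60 sets of 6 arrays. It picked out 2, and about 3 would be picked by chance. The second probe set of Rab27b was 0.53 in sucrose array 1, with the other sucrose arrays between 0.01 and 0.17. The probe set of Rab14 with the lowest p was 0.56 in sucrose array 2, with the others between 0.09 and 0.23.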

How the results depend on the processing

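No Rab probe set had an adjusted p under 0.05 in limma under any of the 18 alternatives, with 0 in each. The number at an unadjusted p under 0.05 was 10, between 7 and 11 in the alternatives that kept all arrays or left out both sucrose array 1 and control array 2 (chosen after seeing the data), and 7 to 12 when single arrays were left out. With quantile normalization 1 probe set was lower, against 3, and 7 probe sets of regulators and effectors had an unadjusted p under 0.05, against 11. Leaving out single arrays gave 6 to 9 higher, 0 to 5 lower and 7 to 11 such probe sets of regulators and effectors, the 7 without sucrose array 3. The class medians moved by less than the SD of the class mean between control arrays (0.0446 secretory, 0.0153 endosomal) in every alternative. The secretory SD is larger than the size of its median (-0.0309), so this says little about stability. Leaving out single arrays gave -0.0398 to -0.0029 for secretory and -0.025 to -0.0093 for endosomal genes, and -0.0229 to 0.0129 for the difference between them.

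Replicate numbers did not pair the arrays: arrays of the same number correlated above 0.1 in 1 of 6 cases, number 4, which alone correlated best with its own number. With the number as a replicate block 9 probe sets had an unadjusted p under 0.05, 7 higher and 2 lower. All 10 probe sets with an unadjusted p below 0.05 kept their direction in all alternatives. They were picked for a low p on these same arrays, so a kept direction was close to given. Without single arrays the unadjusted p in limma reached 0.0876 for Rab8b, 0.103 for Rab5c, 0.0792 for Rab39a and 0.113 for Rab1b. Differences near 0 did not all keep their direction. Rab4a was -0.0022 without both sucrose array 1 and control array 2, and -0.0034 to 0.0137 without single arrays. A probe set of Rab11a was 0.0021 with quantile normalization and -0.0143 to 0.0116 without single arrays, and Rab26 ran from -0.0485 to 0.0017 without single arrays and was -0.0538 without both sucrose array 1 and control array 2. The cause was not tested.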
